A study of Mus musculus with 36 samples.

Results

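10 genes that mark GABAergic interneurons, or encode peptides and proteins these cells secrete, were followed through hippocampal RNA of Cx3cr1-NuTRAP mice. They are Gad1, Gad2, Slc32a1, Sst, Pvalb, Vip, Npy, Cck, Reln and Lhx6, chosen by symbol, and all 10 were found among the 36172 gene entries of the deposited table. In these mice a tamoxifen-inducible cre driven from Cx3cr1, which microglia and related macrophages express, turns on a GFP-tagged ribosome, and polysomes are pulled down with an antibody to GFP (translating ribosome affinity purification, TRAP). The libraries were 10 inputs of mice aged 6 months with Early Induction (5 females, 5 males; young), 12 inputs of mice aged 22 months with Early Induction (7 females, 5 males; old early), 7 inputs of mice aged 22 months with Late Induction (5 females, 2 males; old late), and 7 TRAP libraries of those same old late animals. All 36 carried the Cx3cr1-NuTRAP genotype, an input is cleared whole-tissue homogenate set aside before the pulldown, and no pulldown from mice with Early Induction was analysed here. The study asked whether the age of induction alters the specificity of the model and the detection of age differences.

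Interneurons are the inhibitory minority of hippocampal neurons. Gad1 and Gad2 encode the enzymes that make GABA from glutamate, and Slc32a1 encodes the transporter that loads GABA into synaptic vesicles. Lhx6 is a transcription factor of interneurons born in the medial ganglionic eminence, the source of most cells that express the calcium buffer parvalbumin (Pvalb) or the peptide somatostatin (Sst). Vasoactive intestinal peptide (Vip) marks interneurons of the caudal ganglionic eminence that mostly inhibit other interneurons. Neuropeptide Y (Npy) is shared by several interneuron types, cholecystokinin (Cck) is made by basket cells and also by pyramidal neurons, and reelin (Reln) is a large secreted glycoprotein of interneurons and Cajal-Retzius cells.

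Stretches of 120 bases before a RefSeq start of 4 peptide genes are printed. The reason is that Vip was called higher and Cck lower in the pulldown, while Sst and Npy passed in neither direction. The stretches come from the RefSeq promoter table of GRCm38.p6, in which all 10 genes had an entry. Capitals mark TGACGTCA, the cyclic AMP response element for which the Sst promoter is a textbook case, or its core TGACG, searched on both strands, so that CGTCA is the same core read from the other strand and each TGACGTCA holds the core on both strands.
Sst, chr16:23890845-23890964, minus strand: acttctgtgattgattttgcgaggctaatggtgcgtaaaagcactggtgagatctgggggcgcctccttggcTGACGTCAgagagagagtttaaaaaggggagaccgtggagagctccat
Vip, chr10:5639098-5639217, plus strand: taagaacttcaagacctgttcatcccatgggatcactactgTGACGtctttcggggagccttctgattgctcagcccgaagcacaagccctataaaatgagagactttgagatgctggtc
Cck, chr9:121495695-121495814, minus strand: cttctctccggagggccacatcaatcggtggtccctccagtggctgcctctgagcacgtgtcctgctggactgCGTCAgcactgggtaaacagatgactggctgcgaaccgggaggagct
Npy, chr6:49822590-49822709, plus strand: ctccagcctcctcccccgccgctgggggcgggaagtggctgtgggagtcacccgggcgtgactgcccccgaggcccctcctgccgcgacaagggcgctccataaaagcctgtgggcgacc
The whole element began at position -48 of Sst, counted back from the start next to the printed stretch. The RefSeq spans of Sst (to 23891342) and Vip (from 5639193) reach further upstream than that start, so positions hold for the printed stretches only. The core began at -79 in Vip and at -47 in Cck, and these letters did not occur in the Npy stretch. Over 32851 RefSeq promoters, windows of 120 bases held TGACGTCA in 1.239% and TGACG on either strand in 11.656%. A match describes the letters only.

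Library totals ran from 12.9 to 20.4 M estimated counts, and every member passed the filter on low counts in every comparison. Levels below are CPM, counts relative to the library size scaled by TMM, and a call is a Benjamini-Hochberg adjusted p under 0.05 over all genes in edgeR's quasi-likelihood test. The tissue label was met by summed markers of pyramidal and granule neurons at 6232 to 8114 CPM in the inputs. The 12 microglia markers summed to 10911 to 17203 CPM in TRAP, none of them at 0, against 603 to 872 CPM in the old late inputs, and the 12 neuronal markers still summed to 7018 to 9159 CPM in TRAP, with Map2 listed at 0 in all libraries. The labels carry a number after the letter S, whose meaning they do not give. It runs in blocks with the groups, so what it records and group cannot be told apart. In bulk RNA, fewer cells of a type and less RNA per cell cannot be told apart.

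Divided by the length of the longest coding transcript, the members' levels in the young inputs spread over a wide range. Cck and Sst stood at the top with 371 ± 22.7 and 305 ± 20.7 CPM per kb (SD, n = 10, as for the values that follow). Gad1 followed at 103 ± 4.03 CPM per kb and Npy at 65.7 ± 8.76 CPM per kb. Pvalb at 41.3 ± 5.41 and Slc32a1 at 39.5 ± 3.44 CPM per kb did not differ beyond their spread. Gad2 stood at 25.2 ± 1.28, Vip at 11.2 ± 2.03, Lhx6 at 7.82 ± 0.64 and Reln at 5.16 ± 0.76 CPM per kb. Part of this order rests on the gene model. Over the union of all exons Cck came to 227 CPM per kb, below Sst at 305, and Gad1 to 45.1 CPM per kb, below Npy at 65.7. The counts of Slc32a1, Reln and Lhx6 are uncertain to the extent that reads were shared with Gm14205, Gm10475 and Gm27953, whose exons overlap theirs in GENCODE vM21, since use of strand is not given in the sources used here.

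**Figure D1:**
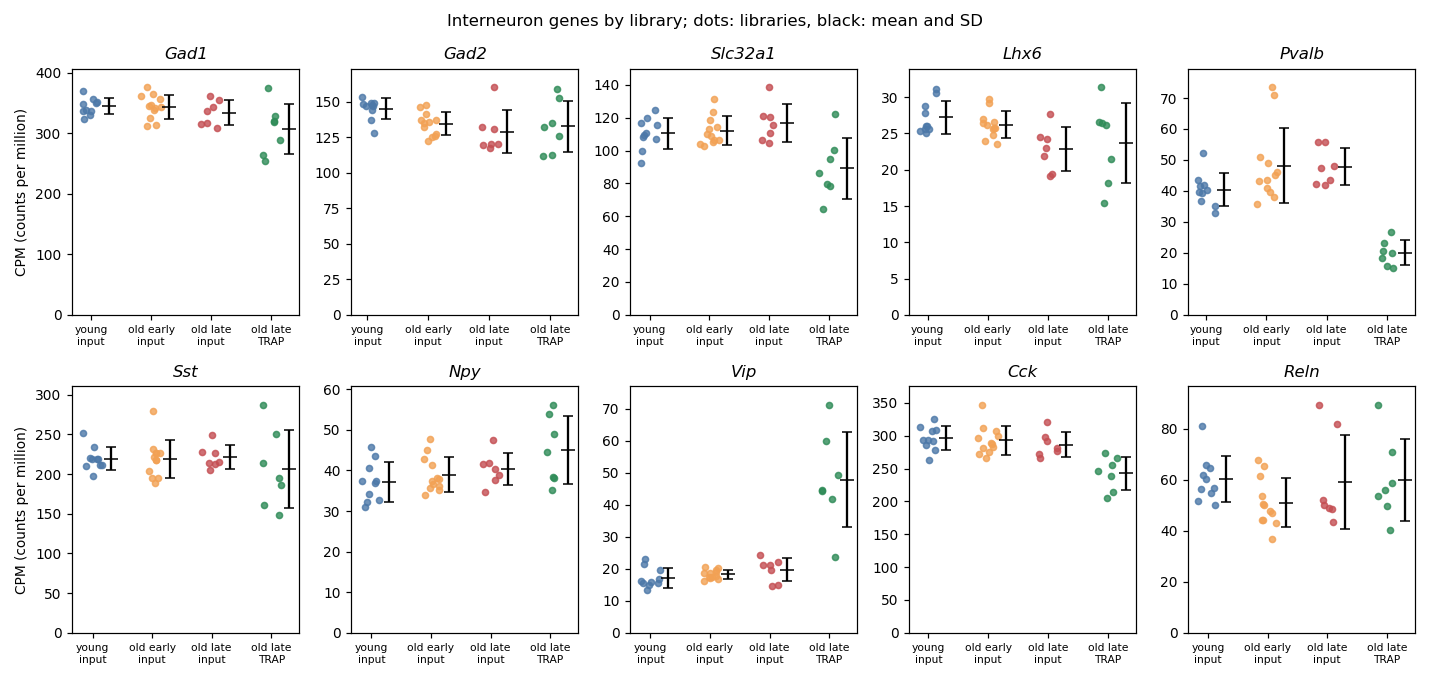
CPM of the 10 genes in each library (dots) of 4 groups, with mean and SD in black; axes start at 0. Vip in TRAP lies above the input groups in all but 1 library, which reached 23.7 CPM against a highest input of 24.3 CPM, Pvalb in TRAP lies below every input, and the 3 input groups overlap for every gene.

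The pulldown was compared with its input to see how interneuron RNA behaves in a fraction meant for microglia. Vip rose 2.43-fold and Pvalb fell to 0.414 times its input level, while Slc32a1 and Cck fell by less. The other 6 members passed in neither direction. Called members were thus 4 of 10, against 59.2% of the 14596 genes tested, 30.4% higher and 28.8% lower, a share of calls no higher than the background. The members' median log2 fold change was -0.06, beside -0.02 over all genes. The edgeR fit held sex but not the pairing of TRAP and input by animal. Its standard errors, intervals and p-values below thus treat the 14 libraries as independent. With animal in place of sex in the fit, the same 4 members were called.

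Vip in TRAP of old late animals 1 to 7 was 41.9, 59.9, 44.6, 44.2, 23.7, 49.2 and 71.2 CPM. In the inputs of the same animals it was 14.5, 19.7, 21.03, 21.1, 15.1, 22.1 and 24.3 CPM. Animal 5 was lowest in TRAP and was the sole overlap with the inputs, yet within every animal TRAP was higher, by 1.56 to 2.99 times. The fitted log2 fold change was 1.28 ± 0.19 (SE, n = 7 against 7, adjusted p = 1.70e-05 by edgeR), or 2.43-fold with a 95% interval of 1.85 to 3.19.

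Pvalb moved the other way. In TRAP it was 18.4, 26.6, 20.5, 23.3, 20.1, 15.8 and 15.2 CPM in animals 1 to 7, and in input 42.2, 55.9, 55.7, 48.0, 47.4, 43.4 and 41.8 CPM. The groups did not overlap, and each animal's TRAP level was 0.372 to 0.491 times its input. The log2 fold change was -1.27 ± 0.11 (SE, n = 7 against 7, adjusted p = 4.47e-08 by edgeR), a ratio of 0.414 with a 95% interval of 0.351 to 0.488.

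The vesicular transporter Slc32a1 lay between 64.5 and 122 CPM in TRAP (median 86.1) and between 105 and 139 CPM in input (median 116). In all, 6 of 7 TRAP libraries were below every input, and animal 2 was the exception, with TRAP at 1.10 times its input. The log2 fold change was -0.41 ± 0.10 (SE, adjusted p = 0.00272 by edgeR). Cck ran from 205 to 273 CPM in TRAP (median 247) and from 267 to 321 CPM in input (median 281), lower in TRAP in 7 of 7 animals. Its log2 fold change was small, -0.25 ± 0.05 (SE, adjusted p = 0.000645 by edgeR).

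Both GABA-making enzymes, Lhx6, Sst, Npy and Reln missed the threshold. Gad1 was at 255 to 374 CPM in TRAP (median 318) and 308 to 361 CPM in input (median 337), a log2 fold change of -0.14 with a 95% interval of -0.28 to 0.01. Sst was at 148 to 288 CPM in TRAP (median 195) and 205 to 249.3 CPM in input (median 216), with an interval of -0.31 to 0.04. TRAP widened the spread of Sst on both sides: 2 libraries were above and 4 below all 7 inputs, the 2 highest being the males, at 251 and 288 CPM. The intervals ran from -0.15 to 0.22 for Gad2, -0.02 to 0.30 for Npy, -0.25 to 0.31 for Lhx6 and -0.37 to 0.41 for Reln, on the same log2 scale. Scaling bears on the small differences. Scaling by upper quartile moved the all-gene median from -0.02 to -0.17 on the log2 scale, and Gad1 and Sst, both at -0.28, were then called lower; relative to the median of all genes Gad1 lay at -0.11 and Sst at -0.11 under both scalings. They were also called with library size alone (both -0.24) and in females alone (-0.22 and -0.25), which gave 6 called members in each case. Gad1 was called without TRAP replicate 2 (-0.18, adjusted p = 0.0363) and Npy without TRAP replicate 6 (0.18, adjusted p = 0.0454), by edgeR.

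Since neuronal RNA as a whole was lower in TRAP, the members were also set against it within each animal. The 11 measurable genes of the neuronal list averaged -0.31 ± 0.14 in log2 TRAP over input (SD, n = 7), or 0.808-fold. Relative to this, Vip lay higher by 1.52 ± 0.27, Npy by 0.45 ± 0.21 and Gad2 by 0.35 ± 0.19, each in 7 of 7 animals, and Pvalb lay at -0.94 ± 0.18 in 7 of 7 (log2, SD, n = 7). Each of these 4 had a two-sided exact sign-flip p of 0.0156, the smallest that 7 animals allow, and an adjusted p of 0.0293 over all genes. The background was 53.3% of genes called, 48.3% above and 5.05% below the neuronal list. Against it, 3 of 10 members above and 1 of 10 below is not a high count. The median over all 14596 genes on this scale was itself above the neuronal list, at 0.29, close to the value of Gad2. Gad1 and Reln were above in 6 of 7 animals, at 0.18 ± 0.14 and 0.34 ± 0.29 (SD), each with an exact adjusted p of 0.0509. Lhx6 (0.33 ± 0.43), Sst (0.17 ± 0.18), Cck (0.06 ± 0.10) and Slc32a1 (-0.10 ± 0.30) were not called. Against the list of pyramidal and granule neurons only Vip and Pvalb passed, with Gad2 and Npy at an exact adjusted p of 0.0559.

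**Figure D2:**
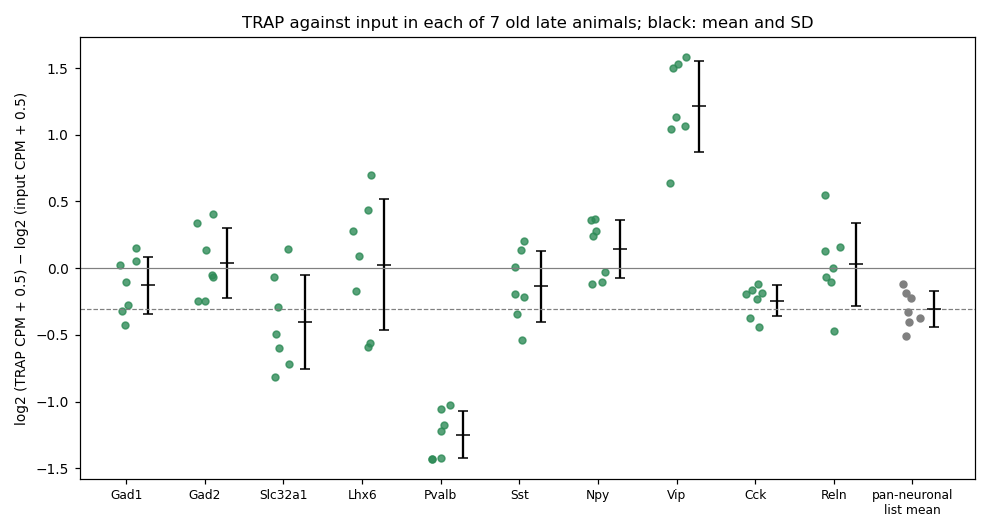
Difference between TRAP and input, log2 of CPM + 0.5, in each of 7 old late animals (dots) with mean and SD in black; the dashed line is the mean of the neuronal list, -0.31. All 7 dots of Vip lie above 0 and all 7 of Pvalb lie under the neuronal list, while Lhx6 spreads from -0.59 to 0.70.

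Genes that accompany the members in interneuron subtypes were counted from lists chosen with earlier results of these data known. The TRAP counts of these and the other related lists are to be read against all genes tested, 30.4% higher and 28.8% lower. Among 11 tested other neuropeptides, 2 rose and 2 fell in TRAP. Those that rose were Tac2, which encodes neurokinin B, and Crh, corticotropin-releasing hormone. Tac2 was at 6.37 to 13.8 CPM in TRAP (median 9.79) and 3.24 to 4.58 CPM in old late input (median 4.16), with no overlap, a log2 fold change of 1.31 ± 0.16 (SE, adjusted p = 2.21e-06 by edgeR) and a higher TRAP level in 7 of 7 animals. Crh was at 2.98 to 10.1 CPM in TRAP and 1.60 to 4.95 CPM in input, overlapping, with a log2 fold change of 0.91 ± 0.27 (SE, adjusted p = 0.00855 by edgeR). Pthlh, parathyroid hormone-like hormone, fell by 0.51 on the log2 scale.

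Of 24 tested other interneuron markers, 3 rose and 12 fell, with a median log2 fold change of -0.35. Htr3a, the serotonin receptor subunit found in caudal-eminence interneurons, rose by 0.78 ± 0.13 (SE), from 8.60 to 13.6 CPM in input to 12.6 to 26.7 CPM in TRAP, and was higher within 7 of 7 animals. The others that rose were Nos1, neuronal nitric oxide synthase (0.48), and Pnoc, the nociceptin precursor (0.36). Slc17a8, a vesicular glutamate transporter of a subset of Cck basket cells, fell by 1.03 on the log2 scale, from 3.92 to 6.07 CPM to 1.45 to 2.98 CPM without overlap. Syt2, a fast calcium sensor of parvalbumin terminals, fell by 0.76. Tac1, the substance P precursor, also fell by 0.76 and Crhbp, the binding protein of corticotropin-releasing hormone, by 0.73; these last 2, Nos1 and Pnoc are named after their values were seen.

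Of 17 interneuron transcription factors, 4 rose and 4 fell. Sox6, which acts with Lhx6 in medial-eminence interneurons, fell by 0.76 on the log2 scale, from 12.5 to 18.5 CPM in input to 7.68 to 10.6 CPM in TRAP with no overlap. Satb1, another factor of that lineage, fell by 0.44. Adarb2, a marker of caudal-eminence interneurons counted with this list, rose by 0.52 and Npas1 by 0.38; Satb1, Adarb2 and Npas1 are named after their values were seen. Maf, which macrophages also express, rose by 2.32.

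In TRAP, 12 of 13 peptide processing and granule genes fell and none rose (median -0.35), led by Scg3 (-0.62), Chga (-0.51) and Scg5 (-0.48), granule proteins of the secretogranin and chromogranin family. The GABA handling list had 6 of 8 lower, led by the transporters Slc6a13 (-1.36) and Slc6a11 (-0.58) and the GABA-degrading Aldh5a1 (-0.39). Astrocyte markers fell in 7 of 8 (median -0.46) and choroid plexus markers in 4 of 5 (median -2.20) in the same libraries, and their part in the GABA handling values was not tested. Of 9 tested receptors of the member peptides, Vipr1, a receptor for Vip, rose by 0.39 ± 0.10 (SE, adjusted p = 0.00276 by edgeR) and 6 fell: Cckbr (-0.66), Npy5r (-0.55), Sstr4 (-0.50), Npy2r (-0.45), Sstr3 (-0.39) and Npy1r (-0.30). In the reelin pathway, the receptors Vldlr (-0.52) and Lrp8 (-0.28), the adaptor Dab1 (-0.43) and the kinase Fyn (-0.25) fell, and the adaptor Crkl rose by 0.22, among 6 tested.

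Age was examined in inputs, old early and old late animals each against the same 10 young controls, so the comparisons are not independent. No member was called in old early against young, where 25.6% of 14948 genes were called. That count of 0 was also 0 with DESeq2 and limma voom, and 3 members had an unadjusted p under 0.05 in edgeR. In old late against young, Gad2 and Lhx6 were lower, 2 of 10 members, where 34.5% of genes were called (17.5% lower). The members' medians were 0.01 in each comparison, as were those of all genes. Over the same inputs 11 of 12 microglia markers rose in old early and 12 of 12 in old late animals, with median log2 fold changes of 0.37 and 0.54, and oligodendrocyte markers rose in 7 and 8 of 8, with medians of 0.34 and 0.49. Of the 11 neuronal markers 2 rose in old early animals and none fell in either group, while 2 and 4 of 8 pyramidal and granule neuron markers fell and 0 and 1 rose; their part in the members' values was not tested.

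Lhx6 was at 25.1 to 31.1 CPM in the young inputs (median 26.01), 23.5 to 29.7 CPM in old early (median 25.99) and 19.2 to 27.7 CPM in old late (median 22.995). In all, 6 of 7 old late libraries were below all 10 young ones. The log2 fold change was -0.23 ± 0.07 in old late (SE, adjusted p = 0.00834 by edgeR) and -0.04 ± 0.06 in old early (SE, adjusted p = 0.636 by edgeR). Old late against old early gave -0.19 ± 0.07 (SE, unadjusted p = 0.00603, adjusted p = 0.241 by edgeR), so a difference by induction age did not pass.

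Gad2 was at 127.8 to 153.5 CPM in young (median 147), 123 to 147 CPM in old early (median 135) and 117 to 160 CPM in old late inputs (median 120). In all, 4 of 7 old late libraries were below every young one, and old late replicate 5 was above them all at 160 CPM. The log2 fold change was -0.16 ± 0.05 in old late (SE, adjusted p = 0.0147 by edgeR) and -0.10 ± 0.04 in old early (SE, adjusted p = 0.0825 by edgeR). Both calls in old late animals were lost in females alone, at -0.09 for Gad2 (adjusted p = 0.395) and -0.12 for Lhx6 (adjusted p = 0.326) by edgeR, where the old late males numbered 2. The Gad2 call was also lost without old late input replicate 2 (-0.14, adjusted p = 0.0505) and without animals 6 and 7 (-0.11, adjusted p = 0.12). In old early animals a Gad2 call was gained when only the compared groups were fitted (-0.11, adjusted p = 0.027), and without young replicate 5, old early replicate 2 or old early replicate 4 (each -0.12, adjusted p = 0.0337, 0.0408 and 0.0438 by edgeR).

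For the other members the data bound the size of an age difference. Gad1 had medians of 344, 344 and 337 CPM in young, old early and old late inputs, and the 95% intervals of its log2 fold changes were -0.06 to 0.07 and -0.11 to 0.05. For Cck the intervals were -0.09 to 0.08 and -0.12 to 0.07, and for Sst -0.09 to 0.11 and -0.07 to 0.16. Slc32a1 had intervals of -0.07 to 0.14 and -0.01 to 0.22, and without old late animals 6 and 7 it was called higher in old late animals (0.16, adjusted p = 0.0459 by edgeR). The intervals were, for Npy, -0.06 to 0.21 and -0.03 to 0.29, and for Vip -0.09 to 0.26 and -0.02 to 0.39. Without young replicate 10, the highest young library for Vip at 23.04 CPM, Vip was called higher in old late animals (0.24, adjusted p = 0.0389 by edgeR).

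**Figure D3:**
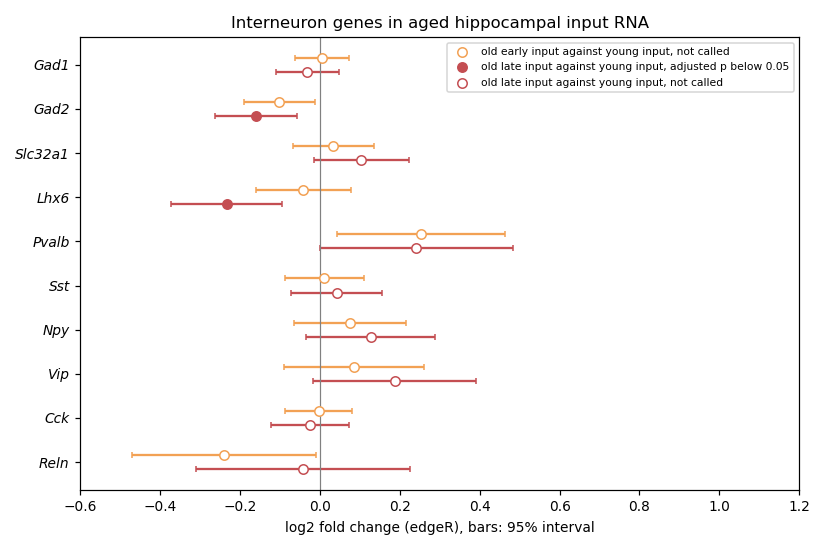
Log2 fold change of each gene in old early and old late inputs against the same young inputs, with 95% intervals; filled points had an adjusted p under 0.05. Only Gad2 and Lhx6 in old late animals are filled, and the widest intervals are those of Reln and Pvalb.

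For Pvalb in old early animals and Reln in old late animals, the size of the age value depended on 2 libraries each. Pvalb was at 33.02 to 52.3 CPM in young (median 39.9), 35.8 to 73.6 CPM in old early (median 44.3) and 41.8 to 55.9 CPM in old late inputs (median 47.4). Old early replicates 2 and 10 stood apart at 70.9 and 73.6 CPM, the other 10 reaching 51.04 CPM at most. The log2 fold change was 0.25 ± 0.10 in old early and 0.24 ± 0.12 in old late (SE, adjusted p = 0.0683 and 0.114 by edgeR). Without old early replicates 2 and 10 the former was 0.09 (adjusted p = 0.383 by edgeR). It was called higher without young replicate 5 (0.30, adjusted p = 0.0315), old early replicate 6 (0.27, adjusted p = 0.0499) or old early replicate 7 (0.28, adjusted p = 0.044), by edgeR. The same 2 libraries were highest of their group for the summed 8 thalamus and habenula markers, none of them at 0 in all libraries. The sums were 362 and 218 CPM, against 120 to 176 CPM in the other 10. In the other input groups the highest sums were 218 CPM in young replicate 6 and 232 CPM in old late replicate 5. Pvalb was at 41.6 and 47.4 CPM in those libraries, within the range of their groups. The part of these markers in the Pvalb level was not tested. In old late animals Pvalb was called higher when only the 2 compared groups were fitted (0.25, adjusted p = 0.0244 by edgeR).

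Reln was at 50.3 to 81.1 CPM in young (median 58.5), 36.7 to 67.9 CPM in old early (median 48.9) and 43.4 to 89.4 CPM in old late inputs (median 50.1). Of the old early libraries, 7 of 12 were below all young ones, and the log2 fold change of -0.24 ± 0.11 (SE) did not pass (adjusted p = 0.116 by edgeR); without old early replicate 1 it was -0.30 (adjusted p = 0.0424). Old late replicates 6 and 7 were at 81.9 and 89.4 CPM and the other 5 at 43.4 to 52.0 CPM, and animal 7 was also highest in TRAP at 89.5 CPM. With all 7 the log2 fold change against young was -0.04 ± 0.13 (SE), and without animals 6 and 7 it was -0.29 (adjusted p = 0.0456 by edgeR). The 7 Cajal-Retzius markers, of which 5 passed the filter on low counts, summed to 87.7 and 68.3 CPM in these 2 animals. In the other 5 they summed to 89.9 to 167 CPM, and their part in the Reln level was not tested.

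**Figure D4:**
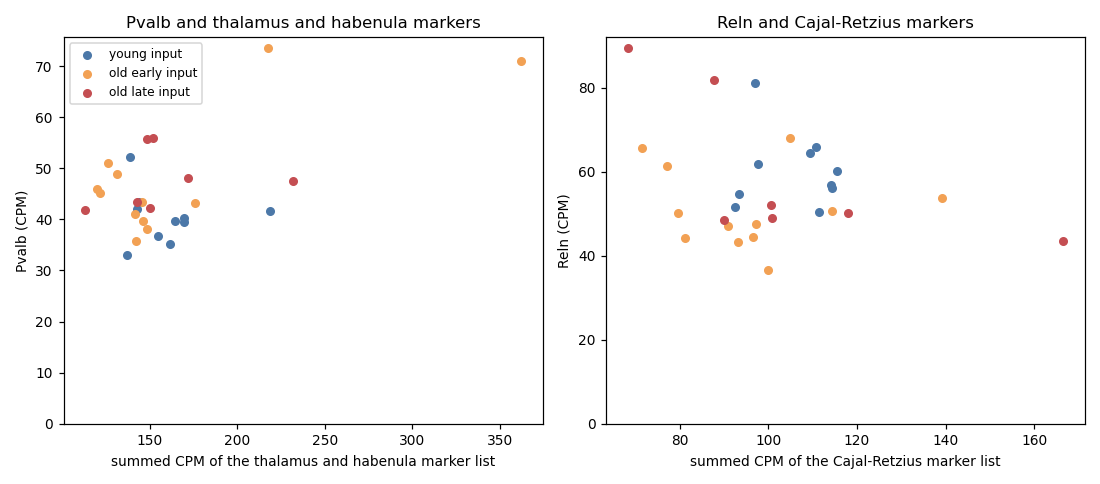
Left, Pvalb against the summed thalamus and habenula markers in the 29 inputs, and right, Reln against the summed Cajal-Retzius markers. Both are in CPM, colours give the group, and Calb2 is in both marker lists. The 2 old early libraries above 70 CPM of Pvalb lie to the right of the other 10 of their group. Young replicate 6 and old late replicate 5, at 218 and 232 CPM of thalamus and habenula markers, lie at 41.6 and 47.4 CPM of Pvalb. The 2 old late libraries above 80 CPM of Reln lie at 68.3 and 87.7 CPM of Cajal-Retzius markers.

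The counts of the 7 related gene lists with age are to be read against the 25.6% and 34.5% of all genes called in old early and old late animals. In old early animals 6 of 7 lists had a smaller share called than all genes, the exception being the reelin pathway (2 of 6). In old late animals 4 of 7 did, the others being GABA handling (4 of 8), the reelin pathway (3 of 6) and the other interneuron markers (9 of 24). Among the other interneuron markers Cort, the somatostatin-like peptide cortistatin, rose by 0.41 ± 0.15 in old early and 0.65 ± 0.17 in old late animals (log2, SE, adjusted p = 0.0361 and 0.0031 by edgeR). It was at 2.70 to 6.11 CPM in young, 3.87 to 9.06 CPM in old early and 4.99 to 9.02 CPM in old late inputs, overlapping. Slc17a8 fell by 0.33 and 0.42. This list had 3 higher and 2 lower of 24 in old early animals and 3 higher and 6 lower in old late animals. Nos1 (-0.63) and Erbb4, a neuregulin receptor of interneurons (-0.56), were called in old late animals, and Ndnf, a marker of neurogliaform cells (-0.30), in old early animals. Of the 17 transcription factors 1 rose and 1 fell in old early animals, and 1 rose and 2 fell in old late animals. Prox1, found in caudal-eminence interneurons and also in dentate granule cells, fell by 0.27 and 0.59, and Adarb2 fell by 0.52 in old late animals. No other neuropeptide of 13 tested was called in either.

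The receptors of the member peptides had 1 higher and 1 lower of 11 in each comparison. Sstr4, a somatostatin receptor, fell by 0.33 ± 0.11 and 0.61 ± 0.13 (log2, SE, adjusted p = 0.0295 and 0.000621 by edgeR), from 17.7 to 25.1 CPM in young to 9.33 to 21.6 CPM in old early and 10.5 to 17.8 CPM in old late inputs. Sstr3, of the same receptor family, rose by 0.19 in old early animals. Cckbr, a receptor for cholecystokinin, rose by 0.83 ± 0.19 in old late animals (SE, adjusted p = 0.00139 by edgeR), from 7.28 to 12.7 CPM in young to 7.56 to 26.7 CPM. Old late replicates 3, 6 and 7 stood apart at 25.96, 24.4 and 26.7 CPM, the other 4 reaching 14.1 CPM at most, and replicates 6 and 7 are also those high in Reln. Without animals 6 and 7 the Cckbr value was 0.59 ± 0.19 (SE, adjusted p = 0.02 by edgeR), and with each library left out it stayed between 0.71 and 0.95. Lrp8, a reelin receptor, fell by 0.25 and 0.28 and Fyn by 0.10 and 0.12, and Dab1 fell by 0.15 in old late animals, so that 2 and 3 of 6 reelin pathway genes fell and none rose. In GABA handling, Gabbr2, a subunit of the GABA-B receptor, fell by 0.31 and 0.49 (adjusted p = 0.00759 and 0.000421 by edgeR), the sole call of 8 in old early animals. In old late animals 4 of 8 fell, among them Aldh5a1 (-0.17) and Gabbr1 (-0.10). Peptide processing genes had 1 of 13 lower in old early animals, Scg2 (-0.13), and 2 higher and 2 lower in old late animals, among them Cadps (-0.21), Cadps2 (-0.21) and Vgf (0.14).

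Between old late and old early inputs no member was called, where 0.0334% of genes were (5 of 14948). DESeq2 and voom also called 0 members, and Lhx6 alone had an unadjusted p under 0.05 in edgeR. Between males and females, over all 29 inputs, no member was called by edgeR, DESeq2 or voom and none had an unadjusted p under 0.05, with 0.174% of genes called. The age difference in the early-induced animals was also compared between the sexes, where 0.0% of 14953 genes and no member passed in edgeR. Again DESeq2 and voom called 0 members, and Sst and Gad1 had an unadjusted p under 0.05. Sst averaged 212 ± 8.95 CPM in young and 237 ± 23.9 CPM in old early males (SD, n = 5 and 5), and 228 ± 16.2 CPM in young and 207 ± 14.2 CPM in old early females (SD, n = 5 and 7). The difference of the age differences, males minus females, was 0.31 ± 0.08 for Sst (log2, SE, unadjusted p = 0.00127, adjusted p = 0.222 by edgeR) and reached an adjusted p of 0.0386 without old early replicate 6. For Gad1 it was -0.13 ± 0.06 (SE, unadjusted p = 0.0306, adjusted p = 0.283 by edgeR).

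After group and sex were removed, the members did not vary as one block across the 29 inputs. Of the 45 pairs, Gad2 and Slc32a1 were the closest (Pearson r = 0.83, n = 29 libraries), followed by Gad1 and Gad2 (0.66), Sst and Npy (0.63), Gad1 and Slc32a1 (0.60) and Sst and Cck (0.59). Gad1 and Sst had the lowest value, -0.46. These correlations describe libraries that share depth, dissection and normalization, and carry no test. Among 13275 genes, those most like Gad2 were Sox1 (0.85), Slc32a1 and Gabrg1 (0.77), and those most like Slc32a1 were Col6a3 (0.84), Gad2 and Sp9 (0.81). Pvalb was closest to Vamp1 (0.78), Kcnab3 (0.77) and Scn4b (0.76), the first a synaptic vesicle protein and the others channel subunits. Reln was closest to Kcnip3 (0.90), Tyro3 (0.86) and Vgf (0.85), and Gad1 to Dnm3 (0.78), Gabbr1 (0.77) and B3gat2 (0.74). The nearest genes were Ubb (0.88), Rpl6 (0.88) and Eif5a (0.83) for Sst, Atp6v0c (0.75), Coa3 (0.70) and 1500011K16Rik (0.70) for Npy, and Phf5a (0.80), Mdh1 (0.79) and Edf1 (0.79) for Cck. Vip was closest to Nxph3 (0.85), Septin5 (0.78) and Camk2n1 (0.78), and Lhx6 to Adck5 (0.68), A730017L22Rik (0.66) and Zfp687 (0.65).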

How the data were processed

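PolyA RNA of 36 hippocampal libraries was analysed from 1 table of estimated counts deposited by the authors, in columns headed raw, as the file headers give them. They hold expected counts, since 77.4% of the nonzero values deposited were not whole. Build mm10 and DESeq2 are named in the submitters' processing notes, with no role. Aligner, counting tool and strand use are not given in the sources used here. Groups, sex and animal numbers came from the labels.

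Counts were rounded and tested with edgeR 4.0.16 in R 4.3.3 (filterByExpr with a minimum count of 10, TMM, glmQLFit and glmQLFTest), adjusted over all genes. TRAP against input was fitted on 14 libraries with sex, the age, induction and sex contrasts in 1 fit of 29 inputs with group and sex, and age by sex in 22 early-induced inputs. Standard errors came from the quasi-likelihood F statistic, and 95% intervals from the t distribution with its degrees of freedom. Ratios to neurons used log2(CPM + 0.5) and an exact sign-flip test over 7 animals (scipy 1.17.1). TRAP and input are paired by animal: their deviations from the group means correlated at 0.329 to 0.501 in 7 of 7 animals, against a median of -0.082 between animals.

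All 204 list genes were matched, 4 by identifier. Lamp5, Map2, Crk and Acta2 are listed at 0 in all libraries. The members and lists were chosen with earlier results of these data known. Besides the members, the text names the up to 3 largest called changes per list and comparison, every called receptor and reelin pathway gene, and the 3 genes most like each member with an average log2 CPM over 1; any other gene is marked as named after its values were known. The values of 1 list gene are not reported here. Alternatives were other scalings, no filter, DESeq2 1.42.0, limma voom 3.58.1, other covariates and groups, females only, the animal block, other pseudocounts and neuron lists, and each library left out. The fits were tested on simulated data.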

Additional observations from a re-analysis of the deposited data

Results flagged for a closer look

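Gad2 in old late input replicate 5 was 160 CPM, the next highest of the 7 being 132 CPM, a gap of 0.652 of the group's range against a critical value of 0.568. The same library was highest of its group for Slc32a1 (139 CPM). It was also highest for summed Cajal-Retzius markers (167 CPM, the next at 118 CPM) and summed thalamus and habenula markers (232 CPM, the next at 172 CPM). Both lists hold Calb2, so these sums are not independent. The part of these genes in the Gad2 level was not tested. Reln in young input replicate 9 was 81.1 CPM, the next highest of the 10 being 65.8 CPM, a gap of 0.496 of the range against 0.466. Of 30 groups examined, 10 genes in each of 3 sample groups of up to 10 libraries, chance would single out about 1.5.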

How the results depend on the processing

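Of 1880 values of single members under the alternatives, 1823 stayed on their side of the threshold, 34 lost a call and 23 gained one. Of the 1880, 113 changed sign, none of them called in either fit. The TRAP calls of Vip, Pvalb, Slc32a1 and Cck held in every fit run, with Vip at 1.14 to 1.39 and Pvalb at -1.42 to -1.20 (log2). The count of called members in TRAP was 4 to 5 with each library left out and 4 to 6 otherwise, and all 4 calls stayed with the animal as replicate block, where 4650 genes were called higher and 4680 lower. Of all TRAP calls 51.4% were higher, against 33.98% with upper quartile scaling and 38.3% with library size alone. In old late against young inputs the count of 2 became 0 in females only and ran from 1 to 3 with each library left out; in old early against young the count of 0 became 1 when only the compared groups were fitted and ran from 0 to 2; in age by sex it ran from 0 to 1. Relative to neurons the count of 4 became 2 against the pyramidal and granule neuron list. With a pseudocount of 2 it became 6, Gad1 and Reln passing at an exact sign-flip adjusted p of 0.0496. Without any 1 animal it became 0, the adjusted p of these 4 members by the same test being 0.0518 to 0.0575. With 6 animals the smallest p this test allows is larger, and these 4 members lay at it each time. No gene could then pass, so these losses, which are among the 34, do not bear on how stable the values are. In those fits Vip lay at 1.46 to 1.60, Npy at 0.40 to 0.50, Gad2 at 0.29 to 0.38 and Pvalb at -0.99 to -0.90 (log2). Over all genes, calls between old late and old early inputs ran from 0 to 164 with each library left out and up to 182 in females only, against 5; those of age by sex reached 453 without old early replicate 6 against 0. The cause of these changes in the counts over all genes was not tested. Leaving out old late animals 6 and 7, or old early animals 2 and 10, was chosen after seeing the data. The 2 old late males and 7 animals with a pulldown limit the precision.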
